A study of Mus musculus with 9 samples.

Results

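The genes described are the collagens and a set of matrix genes of the meninges, the connective tissue sheets around brain and spinal cord. They were taken by annotation alone: every probe set (a group of short oligonucleotides reading 1 transcript region) that the array platform assigns to a single symbol made of Col, a number, the letter a and a number, or to Dcn, Lum, Ogn, Bgn, Fmod or Igf2. This gave 98 probe sets for 48 genes, of 34945 probe sets with a single gene for 18193 genes and of 45037 probe sets in all. Collagen genes made up 42 of the 48 genes and 82 of the 98 probe sets. Collagens are trimeric proteins wound into a triple helix. Fibrillar types build the tensile fibres of connective tissue, type IV builds the sheet of every basement membrane, and other types decorate fibrils, form networks or span cell membranes. Decorin, lumican, osteoglycin, biglycan and fibromodulin (Dcn, Lum, Ogn, Bgn, Fmod) are small leucine-rich proteoglycans that bind collagen fibrils and set their spacing. In the spinal cord, fibroblasts of the meninges and of vessel walls are known as the main makers of fibrillar collagen and of these proteoglycans, and Igf2, a secreted growth factor, is made by the meninges and the choroid plexus.

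RNA was measured on 9 Affymetrix Mouse 430 2.0 arrays in 3 groups of 3: total spinal cord of wild-type mice, motor neurons of wild-type mice and motor neurons of mice mutant for SOD1, the superoxide dismutase gene mutated in a familial form of amyotrophic lateral sclerosis. Both motor neuron groups were cut from tissue by laser capture microdissection. The labels give no strain, age, SOD1 allele or promoter, no explanation of the code D28 in the titles, no rule by which motor neurons were recognised and no word on whether arrays share a mouse. The source field reads ventral spinal cord for every array although the descriptions name total cord. The p-values rest on the variation among arrays of a group, part of which may be technical. In bulk RNA, fewer cells of a type and less RNA per cell cannot be told apart.

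Values are signal intensities on a scale the authors set, on which each array has the same trimmed mean, so a change is relative to the whole array. Array medians were 556 to 582 in cord and 269 to 366 in captured neurons, and 3 arrays per group limit the precision. A signal was counted as above background when it passed the 95th percentile of 27 probe sets for bacterial transcripts on the same array, a level of 131 to 244. Motor neuron genes, taken as a check of the labels, were called higher in wild-type motor neurons for 11 of 13 genes (Mnx1 by 4.49 and Isl1 by 3.64 on the log2 scale), with Chat at 0.61 (adjusted p = 0.0816) and Lhx3 at 0.79 (0.0672) not called. Their summed signal was 27190 to 39400 in cord and 311600 to 343800 in captured neurons. The ratio of 3′ to 5′ control probe sets for Gapdh lay between -0.29 and -0.26 (log2) on cord arrays, between 3.65 and 4.52 on wild-type and between 4.33 and 4.63 on SOD1-mutant motor neuron arrays, so captured control transcripts gave far more signal near their 3′ end. The part of this in the results was not tested.

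Promoter sequence is shown for 5 genes the results turn on. Col1a2, Col3a1 and Ogn were among those with the largest differences between cord and captured neurons. Col5a1 and Col7a1 each had a probe set called higher in wild-type motor neurons than in cord. Each is the 250 bases before the RefSeq gene start, on the plus strand of GRCm38.p6, at chr6:4505368-4505617 for Col1a2, chr1:45311288-45311537 for Col3a1, chr13:49607765-49608014 for Ogn, chr2:27886175-27886424 for Col5a1 and chr9:108953336-108953585 for Col7a1. Capitals mark matches, on either strand, to the CCAAT box (the letters CCAAT, read as ATTGG on the other strand), to the GC box (GGGCGG, read as CCGCCC) and to a TATA motif (TATAAA, read as TTTATA).
Col1a2: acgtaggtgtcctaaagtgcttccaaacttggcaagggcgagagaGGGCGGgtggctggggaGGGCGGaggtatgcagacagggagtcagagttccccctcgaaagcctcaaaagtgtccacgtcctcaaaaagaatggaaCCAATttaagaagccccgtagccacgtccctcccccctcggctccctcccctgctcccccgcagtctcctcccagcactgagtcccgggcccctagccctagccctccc
Col3a1: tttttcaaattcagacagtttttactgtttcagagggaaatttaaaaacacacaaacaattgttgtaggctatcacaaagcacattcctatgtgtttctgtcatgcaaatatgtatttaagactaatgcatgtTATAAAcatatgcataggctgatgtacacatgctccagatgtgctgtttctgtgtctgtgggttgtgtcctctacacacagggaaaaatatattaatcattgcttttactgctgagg
Ogn: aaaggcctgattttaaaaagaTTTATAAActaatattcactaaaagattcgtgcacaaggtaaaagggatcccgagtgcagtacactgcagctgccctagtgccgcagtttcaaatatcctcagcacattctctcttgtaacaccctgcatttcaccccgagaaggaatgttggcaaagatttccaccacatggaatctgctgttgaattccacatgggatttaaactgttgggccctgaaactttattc
Col5a1: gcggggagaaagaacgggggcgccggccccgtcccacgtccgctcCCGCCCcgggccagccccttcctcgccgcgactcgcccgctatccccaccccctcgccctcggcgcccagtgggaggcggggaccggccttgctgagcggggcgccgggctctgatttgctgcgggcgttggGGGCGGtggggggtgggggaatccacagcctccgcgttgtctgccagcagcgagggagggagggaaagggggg
Col7a1: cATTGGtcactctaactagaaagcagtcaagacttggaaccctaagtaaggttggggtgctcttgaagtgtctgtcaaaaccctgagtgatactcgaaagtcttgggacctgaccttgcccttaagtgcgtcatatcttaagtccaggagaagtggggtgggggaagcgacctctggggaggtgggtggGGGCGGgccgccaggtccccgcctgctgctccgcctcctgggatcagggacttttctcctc
The window of Col1a2 held 2 GC box matches and 1 CCAAT match, and that of Col3a1 held 1 TATA match and neither of the others. In Ogn the 2 TATA matches overlap on opposite strands. Col5a1 held 2 GC box matches, 1 on each strand, and Col7a1 held 1 GC box and 1 CCAAT match. RefSeq windows were found for 37 of the 48 genes, 43 windows in all. Of these 43 windows, 24 held the GC box, 14 the CCAAT box and 6 the TATA motif, beside 32.7%, 33.8% and 12.4% of the 32851 windows of all genes. No motif of the 3 was in the windows of Col1a2, Col3a1 and Ogn alike.

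In whole cord most of these genes had measurable signal. On the cord arrays 80 to 87 of the 98 probe sets were above background (81.6% to 88.8%, beside 70.8% to 73.7% of all probe sets). In wild-type motor neurons 48 to 52 were (49.0% to 53.1%, beside 62.0% to 66.9%), and in SOD1-mutant motor neurons 34 to 55 (34.7% to 56.1%, beside 59.6% to 61.1%). The lowest count, 34, was that of SOD1-mutant replicate 2, which had the highest background level. Of the 76 probe sets above background on all 3 cord arrays, 19 stayed above it on all 6 captured arrays (25.0%, beside 68.7% for all probe sets) and 9 were above it on none (11.8%, beside 4.40%). On no array above background were 5 of the 98. Probe sets were tested when their mean log2 signal over the 3 groups passed the 40th percentile, which kept 64 of the 98, for 38 genes. A probe set bright in cord alone could pass, so counts among the 64 describe those probe sets and not all 98.

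**Figure D1:**
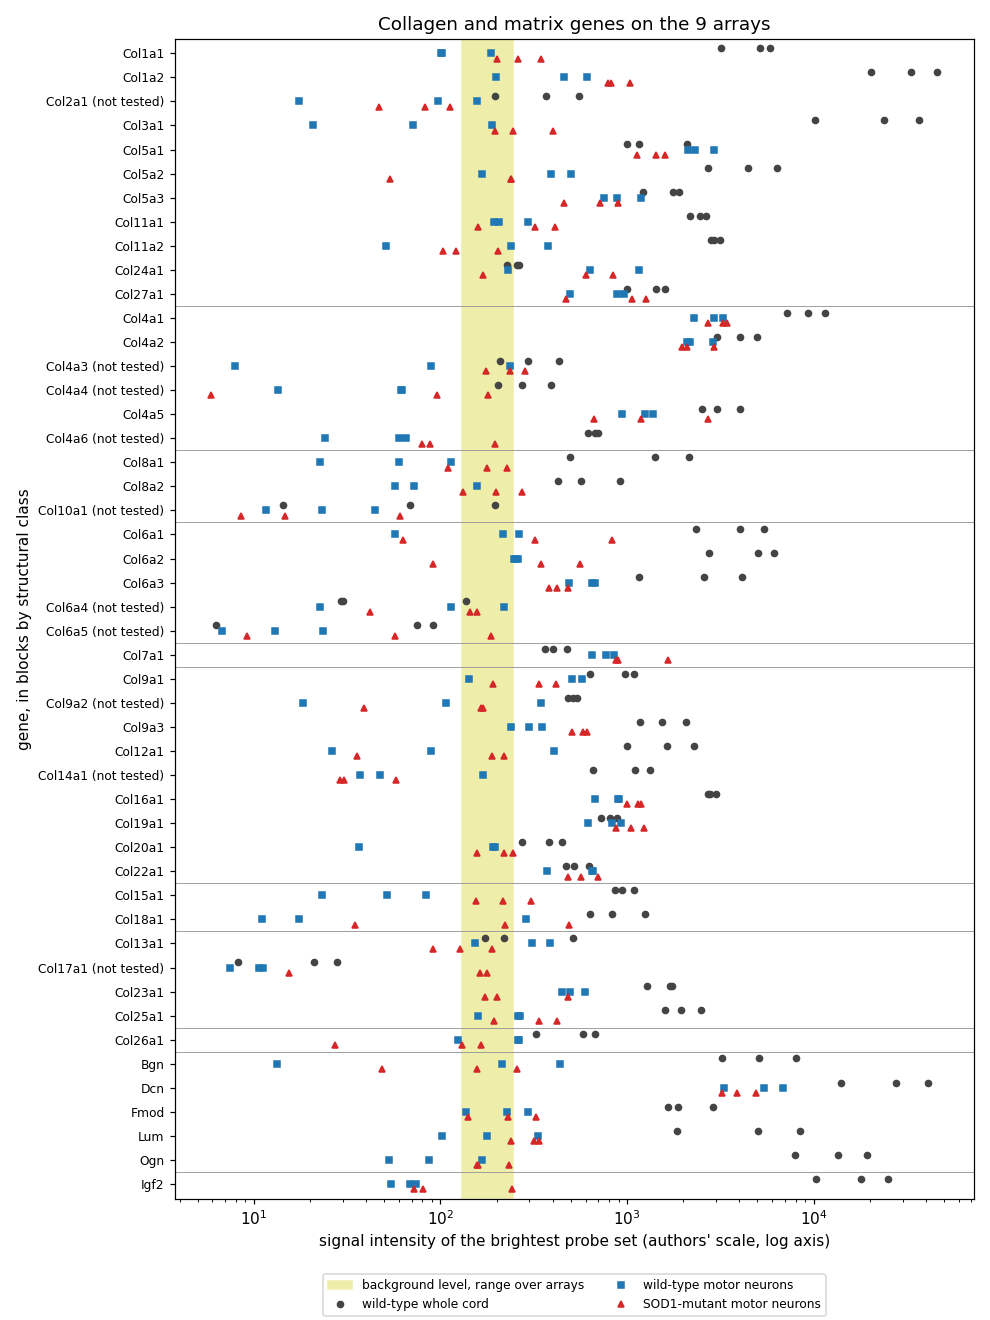
Signal intensity (log axis, authors' scale) of the probe set with the highest mean for each of the 48 genes, 1 point per array, in blocks by structural class; the band is the range of background levels, 131 to 244. Black cord points lie right of both motor neuron groups in most rows, with Col7a1, where all 6 captured arrays lie right of the cord arrays, among the exceptions.

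Most of the tested probe sets were lower in wild-type motor neurons than in wild-type whole cord. Of the 64 tested probe sets 50 were lower in motor neurons, beside 41.5% of all 27022 tested, 3 were higher, beside 24.0%, and 11 were not called (limma, Benjamini-Hochberg adjusted p under 0.05, which called 65.5% of all probe sets in either direction). The median change of the 64 was -2.77 on the log2 scale, beside -0.35 for all probe sets. Counted once per gene by the probe set of highest mean, 31 of 38 genes were lower, 2 higher and 5 not called. Because array medians differed between tissue and captured neurons, the comparison was repeated with other scalings: with each array centred on its median 43 were lower and 8 higher, and with quantile normalization 44 and 8. The median of all probe sets moved to 0.56 and 0.13 and that of the 64 to -1.86 and -2.23, and 43 of the 64 were lower in all 3 scalings, beside 19.4% of all probe sets. The shares of all probe sets called in each other scaling alone are not given here. The 41.5% and 24.0% above do not apply to counts in other scalings, here or below. Arrays of the 2 groups did not overlap for 52 of the 64 in the lower direction, beside 45.4% of all, and for 3 in the higher, beside 26.4%.

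The fibrillar collagens were lower in wild-type motor neurons on most of their probe sets. Of 16 tested probe sets for 10 genes, 13 were lower (81.2%, beside 41.5% of all probe sets), 1 higher (6.25%, beside 24.0%) and 2 not called. Their median was -3.47, and 11 were lower and 3 higher in both other scalings. Col1a2 encodes the second chain of type I collagen, the main fibre protein of connective tissue. Its probe set 1423110_at read 17840, 5952 and 12190 on the cord arrays, 21.4, 38.7 and 17.3 on the wild-type motor neuron arrays and 225, 308 and 321 on the SOD1-mutant arrays. All wild-type motor neuron values lay below background, so the difference from cord was at least 68.6-fold (log2 fold change -7.92 ± 0.40 SE, adjusted p = 8.04e-07). The second Col1a2 probe set, 1450857_a_at, stayed above background on every array, with 45920, 20350 and 33330 in cord, 199, 610 and 458 in wild-type and 1035, 819 and 792 in SOD1-mutant motor neurons. It was lower by -6.28 ± 0.40 in wild-type motor neurons (adjusted p = 2.57e-06). Cord and captured arrays were thus far apart for both probe sets of Col1a2, at different distances. Col3a1 encodes the type III collagen of vessel walls and soft connective tissue. Its probe set 1427883_a_at read 36700, 10210 and 23820 in cord, 20.7, 190 and 71.2 in wild-type and 402, 195 and 245 in SOD1-mutant motor neurons. The groups did not overlap, 1 of 3 wild-type motor neuron arrays was above background, and the change was -7.81 ± 0.61 (adjusted p = 8.10e-06). The second Col3a1 probe set, 1427884_at, read 2690, 773 and 1801 in cord and 96.9, 142 and 213 in wild-type motor neurons. It was lower by -3.26 ± 0.48 (adjusted p = 3.34e-04), a smaller change.

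Other chains of the same fibres were also lower. Col1a1, the partner chain of Col1a2, changed by -4.99 ± 0.32 (probe set 1455494_at, adjusted p = 2.44e-06), and its other probe set, 1423669_at, with no captured value above background, missed the filter. The type V chain Col5a2 changed by -3.64 and -4.66 on its probe sets, and the type XI chains Col11a1 (-3.30 and -4.22) and Col11a2 (-3.94), known from cartilage, were lower as well. Col5a3, a further type V chain, read 1757, 1222 and 1901 in cord and 749, 1186 and 881 in wild-type motor neurons, a change of -0.78 ± 0.24 (adjusted p = 0.0199). Its call and that of Col27a1, a collagen of cartilage (1429549_at, -0.80 ± 0.30, adjusted p = 0.0425), were lost with both other scalings, in which both values turned to between 0.04 and 0.13. The call of Col5a3 was also lost without cord replicate 1 (-0.71), cord replicate 3 (-0.66) or wild-type motor neuron replicate 3 (-0.75), and that of Col27a1 without cord replicate 2 (-0.66), cord replicate 3 (-0.74) or wild-type motor neuron replicate 1 (-0.51). The second Col27a1 probe set, 1453191_at, was lower by -3.01 ± 0.52 (adjusted p = 8.76e-04). Col24a1 read 259, 226 and 265 in cord and 230, 1166 and 635 in wild-type motor neurons. Its arrays overlapped, and its change of 1.10 ± 0.53 did not pass (adjusted p = 0.0983). It was called higher with quantile normalization (1.88, adjusted p = 0.00913) and median centring (2.01, adjusted p = 0.00585).

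Col5a1, which encodes the chain common to most type V collagen, was the 1 fibrillar gene called higher in wild-type motor neurons; with the other scalings Col24a1 was called higher as well. Probe set 1434479_at read 2108, 995 and 1160 in cord, 2117, 2912 and 2323 in wild-type and 1422, 1606 and 1131 in SOD1-mutant motor neurons. The wild-type motor neuron arrays lay above the cord arrays, cord replicate 1 only just below the lowest of them, and the change was 0.84 ± 0.28 (adjusted p = 0.0245). The call was lost without cord replicate 2 (0.63, adjusted p = 0.0882), cord replicate 3 (0.74, 0.0820), wild-type motor neuron replicate 2 (0.71, 0.0619) or wild-type motor neuron replicate 3 (0.87, 0.0618). A second probe set, 1416740_at, read 2401, 973 and 1641 in cord and 1929, 2238 and 2324 in wild-type motor neurons, where the groups overlapped and the change of 0.46 ± 0.29 did not pass (adjusted p = 0.200). In the other scalings both tested probe sets were called higher, 1416740_at at 1.11 and 1.36 (quantile normalization and median centring, adjusted p = 0.0119 and 0.00224). The remaining Col5a1 probe set, 1416741_at, missed the filter and went the other way (-1.405). It read 595, 26.2 and 331 in cord and 20.9, 167 and 49.9 in wild-type motor neurons, where the groups overlapped.

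All 5 tested probe sets of type IV collagen, the basement membrane collagen of vessels and the pial surface, were lower in wild-type motor neurons. The share lower of all probe sets was 41.5%. The median of the 5 was -1.66, and 2 were still lower after median centring and 3 after quantile normalization. Col4a1 read 11550, 7240 and 9369 in cord and 2279, 3255 and 2914 in wild-type motor neurons (1452035_at, -1.72 ± 0.19, adjusted p = 6.51e-05). The second Col4a1 probe set, 1426348_at, was lower by -3.17 ± 0.27 (adjusted p = 1.31e-05). The partner chain of Col4a1, Col4a2, read 4948, 3034 and 4038 in cord and 2090, 2881 and 2186 in wild-type motor neurons. The 2 groups stood next to each other without overlap, and the change of -0.73 ± 0.20 (adjusted p = 0.0114) turned to 0.18 after median centring. Col4a5 changed by -1.40 ± 0.22 (adjusted p = 4.93e-04), a call lost after centring (-0.49, adjusted p = 0.0858). Both Col8 chains, short-chain collagens known from the membrane under corneal endothelium, were lower: Col8a1 was under the background level on each wild-type motor neuron array and at least 7.33-fold lower, and Col8a2 changed by -2.53 ± 0.49 (adjusted p = 0.00167).

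Type VI collagen forms beaded filaments around cells. Its 4 tested probe sets were lower in every scaling, beside 19.4% of all probe sets, with a median of -4.01. Col6a1 read 5434, 2354 and 4039 in cord and 264, 57.4 and 217 in wild-type motor neurons (-4.43 ± 0.51, adjusted p = 7.53e-05). Col6a2 read 6160, 2734 and 5020 in cord and 260, 255 and 249 in wild-type motor neurons (-4.01 ± 0.29, adjusted p = 5.27e-06). The SOD1-mutant arrays of this probe set, 1452250_a_at, read 91.8, 557 and 344, wider apart than the wild-type ones. The second Col6a2 probe set, 1426947_x_at, read 43.9, 193 and 279 in wild-type motor neurons and was lower by -4.01. Col6a3 was above background on every array, at 4150, 1164 and 2570 in cord and 490, 646 and 674 in wild-type motor neurons (-1.92 ± 0.41, adjusted p = 0.00295).

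For the fibril-associated and transmembrane collagens the share lower was near that of the whole array. Fibril-associated collagens sit on the surface of fibrils; of their 13 tested probe sets 6 were lower (46.2%, beside 41.5% of all probe sets), 1 higher (7.69%, beside 24.0%) and 6 not called, and 5 were lower and 4 higher in both other scalings. Col16a1 read 2775, 2990 and 2727 in cord and 674, 900 and 905 in wild-type motor neurons (-1.76 ± 0.17, adjusted p = 2.92e-05). Col9a3, a chain of the cartilage collagen IX, changed by -2.33 ± 0.28 and -4.64 ± 0.54 on its probe sets. Probe sets of Col19a1 and Col22a1 differed in their changes. For Col19a1, 1421698_a_at changed by -1.75 ± 0.26 (adjusted p = 3.33e-04), whereas 1456953_at, at 885, 727 and 815 in cord and 621, 926 and 826 in wild-type motor neurons, changed by -0.05 ± 0.23 (adjusted p = 0.874). In both other scalings the latter was called higher, at 0.85 and 0.86. For Col22a1, a collagen of tissue junctions, 1453084_s_at read 318, 67.4 and 264 in cord, 675, 811 and 1271 in wild-type and 717, 484 and 780 in SOD1-mutant motor neurons. All captured arrays lay above all cord arrays, and the change was 2.15 ± 0.53 (adjusted p = 0.00642). This probe set carries the suffix s_at, and whether its signal comes from Col22a1 alone was not tested. The other tested Col22a1 probe sets changed by 0.03 ± 0.30 (1446851_at) and 0.39 ± 0.42 (1429280_at), neither called. Both were called higher in both other scalings, 1446851_at at 0.89 and 0.93 and 1429280_at at 1.14 and 1.30 (quantile normalization and median centring), so the call of these probe sets rests on the scaling. The transmembrane collagens, which are anchored in the cell membrane, had 3 of 6 probe sets lower, beside 41.5% of all, and none higher in each of the 3 scalings. Col25a1, which neurons are known to express, read 1604, 2496 and 1935 in cord and 266, 159 and 259 in wild-type motor neurons (1438540_at, -3.04 ± 0.29, adjusted p = 2.31e-05), and its second probe set 1421427_at changed by -0.42 ± 0.77 (adjusted p = 0.647), which turned to 0.36 and 0.49 in the other scalings. Col23a1 changed by -1.58 ± 0.22 (adjusted p = 2.59e-04). Col13a1 read 512, 218 and 172 in cord and 153, 309 and 388 in wild-type motor neurons, overlapping groups with a change of -0.02 ± 0.52 (adjusted p = 0.971).

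Col7a1, which encodes the anchoring fibril collagen of skin basement membrane, was higher in captured neurons. It read 365, 476 and 400 in cord, 646, 847 and 767 in wild-type and 894, 1661 and 877 in SOD1-mutant motor neurons. The 9 values fall into cord and captured arrays without overlap, and the change in wild-type motor neurons was 0.83 ± 0.25 (adjusted p = 0.0179), and 1.74 and 1.65 in the other scalings. Without cord replicate 1 the adjusted p was 0.0603 (0.75) and without cord replicate 3 it was 0.0538 (0.81). The multiplexins, basement membrane collagens whose C-terminal fragments are released, were lower: Col15a1 was at least 6.17-fold lower in wild-type motor neurons, and Col18a1 changed by -3.63 ± 0.83 (adjusted p = 0.00444). Col26a1 changed by -1.21 ± 0.43 (adjusted p = 0.0340), a call lost with both other scalings (-0.30 and -0.36), without cord replicate 1 (-1.01), cord replicate 3 (-1.12) or wild-type motor neuron replicate 3 (-0.89).

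**Figure D2:**
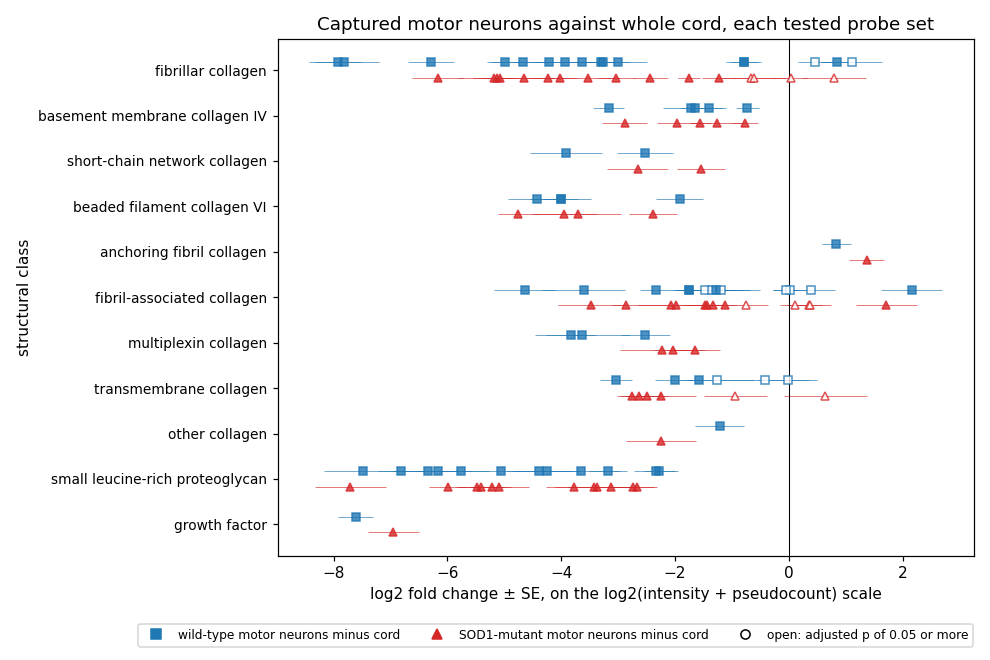
Log2 fold change with its standard error for each of the 64 tested probe sets against whole cord, by structural class, in wild-type (blue squares) and SOD1-mutant motor neurons (red triangles); open symbols did not pass the adjusted p of 0.05. The 12 proteoglycan probe sets all lie left of 0 with filled symbols in both genotypes, and Col7a1 and 1 Col22a1 probe set are filled right of 0 in both; both comparisons use the same 3 cord arrays.

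All 12 tested probe sets of the 5 small leucine-rich proteoglycans were lower in wild-type motor neurons in all 3 scalings. The share of all probe sets lower in all 3 was 19.4%, and the median change of the 12 was -4.73. Dcn, the proteoglycan decorin, read 40980, 14070 and 27490 in cord, 6840, 3307 and 5391 in wild-type and 3210, 4925 and 3888 in SOD1-mutant motor neurons. It was above background on all 9 arrays, and the change in wild-type motor neurons was -2.34 ± 0.38 (adjusted p = 6.47e-04). Lum, whose product lumican organises collagen fibrils in the cornea, read 8432, 1848 and 5041 in cord, 102, 334 and 177 in wild-type and 238, 316 and 339 in SOD1-mutant motor neurons (-4.40 ± 0.56, adjusted p = 1.53e-04). Ogn, encoding osteoglycin, read 19310, 7960 and 13500 in cord, 166, 53.1 and 86.4 in wild-type and 233, 157 and 159 in SOD1-mutant motor neurons (1419662_at, -6.82 ± 0.40, adjusted p = 1.62e-06). Its second probe set, 1419663_at, read 15860, 7532 and 12280 in cord, 9.50, 206 and 18.6 in wild-type and 7.10, 140 and 16.8 in SOD1-mutant motor neurons. In both captured groups replicate 2 of 1419663_at stood above the other two, and 1 of the 6 captured values was above background. Bgn, encoding biglycan, read 8001, 3238 and 5123 in cord, 13.3, 215 and 435 in wild-type and 158, 258 and 48.4 in SOD1-mutant motor neurons (1416405_at, -5.06 ± 0.84, adjusted p = 6.99e-04). Fmod, encoding fibromodulin, read 2874, 1649 and 1864 in cord, 296, 136 and 229 in wild-type and 141, 324 and 231 in SOD1-mutant motor neurons (1415939_at, -3.18 ± 0.34, adjusted p = 4.64e-05). Captured values of Lum, Bgn and Fmod scattered around the background level. Some Fmod, Bgn and Col6a2 probe sets carry the suffix x_at, the maker's mark for probes shared with other sequences, and their signal may not come from these genes alone.

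Igf2, the growth factor of the set, was far dimmer in captured neurons than in cord on its brighter probe set, which had no captured value above background. This probe set, 1448152_at, read 25060, 10330 and 17830 in cord, 68.8, 73.7 and 54.2 in wild-type and 72.5, 242 and 80.8 in SOD1-mutant motor neurons. The cord arrays lay far above all captured arrays, and the difference from cord was at least 105-fold in wild-type motor neurons (-7.61 ± 0.31, adjusted p = 3.32e-07). The second Igf2 probe set, 1415931_at, missed the filter and read 483, 272 and 296 in cord, 26.3, 64.3 and 142 in wild-type and 120, 218 and 33.2 in SOD1-mutant motor neurons, with 1 of the 6 captured values above background. In a list of genes of the same axis, the binding proteins Igfbp3, Igfbp5 and Igfbp7 changed by -4.33, -3.70 and -3.53. Of its 10 tested genes 8 were lower (80.0%, beside 41.5% of all probe sets) and none higher (beside 24.0%). After median centring 7 were lower and 2 higher. The scavenging receptor Igf2r did not pass (-0.06 ± 0.18, adjusted p = 0.780), and the signalling receptor Igf1r changed by -0.84 ± 0.16 (adjusted p = 0.00177).

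Between SOD1-mutant and wild-type motor neurons no collagen or matrix gene passed the test. None of the 64 probe sets passed in limma's adjusted test, beside 0.222% of all probe sets (0.152% higher and 0.0703% lower). At an unadjusted p under 0.05 there were 10 (8 higher and 2 lower), beside 15.2% of all (7.11% higher and 8.13% lower), so the total is close to the background share. The median change was 0.18, beside -0.01 for all probe sets. Arrays of the genotypes did not overlap for 11 in the higher direction, beside 10.5% of all, and 3 in the lower, beside 11.7%. On simulated arrays of this comparison 58% of changes of 2 and 19% of changes of 1 on the log2 scale were recovered, so changes of this size could be missed.

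The smallest p belonged to Col1a2. Probe set 1423110_at was 21.4, 38.7 and 17.3 in wild-type and 225, 308 and 321 in SOD1-mutant motor neurons, with all SOD1-mutant arrays above background and no wild-type one, at least 1.89-fold. The change was 2.74 ± 0.73 (unadjusted p = 0.00345, adjusted p = 0.139), and it passed only when all 9 arrays were fitted together (adjusted p = 0.00709), where the cord arrays enter the estimate of spread. The second Col1a2 probe set, 1450857_a_at, was 199, 610 and 458 against 1035, 819 and 792, also without overlap (1.15 ± 0.41, adjusted p = 0.228). The remaining Col1a2 probe set, 1446326_at, was below background on all 6 captured arrays and was not tested. Col5a1 was the other way round: 1434479_at was 2117, 2912 and 2323 in wild-type and 1422, 1606 and 1131 in SOD1-mutant motor neurons, without overlap (-0.81 ± 0.23, adjusted p = 0.152). Its second probe set, 1416740_at, was 1929, 2238 and 2324 against 353, 2127 and 1236, which overlapped (-1.12 ± 0.51, adjusted p = 0.328). The remaining Col5a1 probe set, 1416741_at, was 20.9, 167 and 49.9 against 17.3, 23.5 and 38.4 and was not tested. The remaining probe sets at an unadjusted p under 0.05 were 2 of Col9a3 (0.90 and 1.77) and 1 each of Col11a1 (1.78), Col15a1 (1.79), Col27a1 (1.26) and Col3a1 (1.64), with adjusted p from 0.255 to 0.324. Several of these were below background in wild-type motor neurons, as were all 3 arrays of Col15a1. The other tested probe sets of Col11a1 (1418599_at, 0.27), Col27a1 (1429549_at, 0.19) and Col3a1 (1427884_at, -0.27) overlapped between genotypes. The summed signal of the meningeal and perivascular fibroblast genes was 28870 to 50240 in wild-type and 41030 to 45590 in SOD1-mutant motor neurons, which overlapped. Of the 13 lists of other genes, the summed signal of 5 was higher in SOD1-mutant motor neurons without overlap, that of 3 lower and that of 5 overlapped. For such sums no share over the whole array was computed, so these counts have nothing to be read beside. None of the 124 tested genes of the lists passed the adjusted test. The higher ones were pericyte and smooth muscle genes (6169 to 9137 in wild-type and 9164 to 12170 in SOD1-mutant motor neurons), endothelial genes (19440 to 20520 and 20790 to 24480), astrocyte genes (11480 to 23230 and 24170 to 26090), oligodendrocyte genes (162000 to 181100 and 205500 to 218600) and genes of the Igf2 axis (12230 to 14010 and 14920 to 16150). The lower ones were motor neuron genes (328800 to 343800 and 311600 to 326400), Schwann cell and peripheral nerve genes (108100 to 134500 and 105300 to 106400) and other basement membrane genes (16230 to 18510 and 12420 to 14290). Most of the basement membrane sum came from Agrn, at 11980, 13960 and 13160 in wild-type and 7661, 7201 and 10420 in SOD1-mutant motor neurons. That sum therefore does not describe the other genes of its list. Each of the sums is weighted to its brightest genes. Among tested genes, called or not, 6 endothelial genes were lower and 5 higher in SOD1-mutant motor neurons (median -0.06). For the Igf2 axis these counts were 4 and 6 (0.18), and for pericyte and smooth muscle genes 1 and 7. They were 1 and 3 for astrocyte, 1 and 2 for oligodendrocyte, 9 and 4 for motor neuron and 3 and 1 for Schwann cell genes. The part of any of these cells in the values above was not tested.

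**Figure D3:**
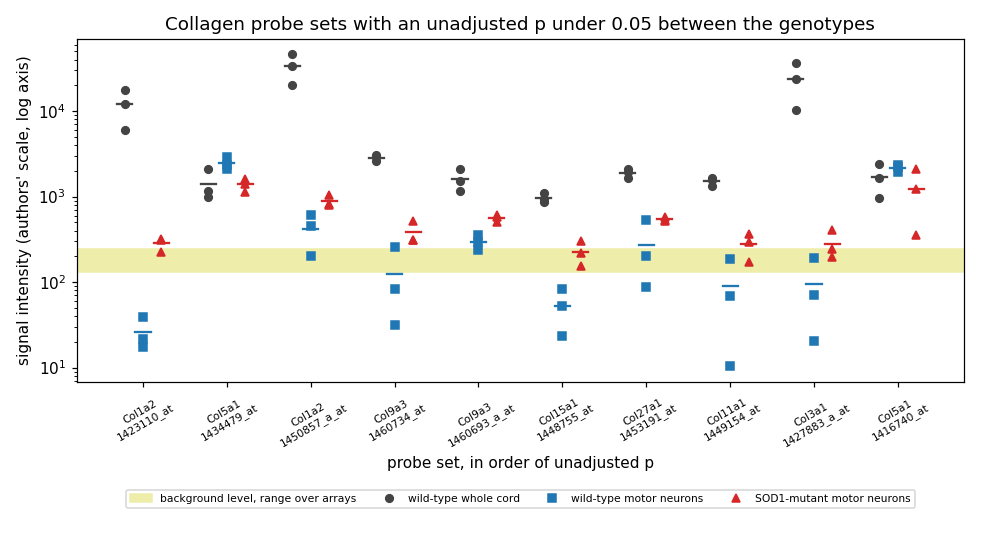
Signal intensity (log axis) on each array, with group means as bars, for the 10 probe sets with an unadjusted p under 0.05 between genotypes, in order of p; the band is the range of background levels. None passed the adjusted test; the 2 Col1a2 probe sets do not overlap between genotypes, and outside Col5a1 every motor neuron value lies below the cord values of its probe set.

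SOD1-mutant motor neurons against whole cord use the same cord arrays as the wild-type comparison, and genotype and capture cannot be told apart in them. Here 52 of the 64 were lower, beside 40.2% of all probe sets, 2 were higher, beside 21.9%, and 10 were not called. Of all probe sets 62.1% were called in either direction. The median was -2.47, beside -0.37. After median centring 38 were lower and 7 higher, and after quantile normalization 39 and 5. In all 3 scalings 37 of the 64 were lower, beside 18.7% of all probe sets. By role, 12 of 16 fibrillar probe sets were lower, 5 of 5 of type IV, 4 of 4 of type VI, 8 of 13 fibril-associated, 4 of 6 transmembrane and 12 of 12 proteoglycan probe sets. These counts are to be read beside the same 40.2% of all probe sets. Quantile normalization and centring left 2 and 3 of the type IV and 4 and 2 of the fibril-associated probe sets lower, and kept all of type VI and the proteoglycans. Among the probe sets furthest below cord, Igf2 (-6.95 ± 0.45, at least 79.6-fold), Ogn (1419663_at, -7.70 ± 0.62, at least 54.3-fold) and Bgn (1448323_a_at, -5.47 ± 0.38, at least 22.9-fold) had no SOD1-mutant value above background, so they have no order by size. Col3a1 (1427883_a_at, -6.17 ± 0.45) and Ogn (1419662_at, -6.00 ± 0.32) had 2 and 1 of 3 arrays above background. Dcn changed by -2.66 ± 0.35 (adjusted p = 2.48e-04) and Col4a1 by -1.56 ± 0.19 (1452035_at, adjusted p = 1.44e-04). The second probe sets of Col3a1 (1427884_at, -3.53) and Col4a1 (1426348_at, -2.885) were lower at other sizes. Col7a1 was higher by 1.37 ± 0.31 (adjusted p = 0.00462). The Col22a1 probe set 1453084_s_at was higher by 1.71 ± 0.54 (adjusted p = 0.0227), a call lost without SOD1-mutant replicate 1 (1.64, adjusted p = 0.0575) or replicate 3 (1.58, 0.0792). Col5a1 1434479_at changed by 0.03 ± 0.29 (adjusted p = 0.942), with SOD1-mutant and cord arrays overlapping.

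The genes differed more between the 3 cord arrays than most of the array did. Among the 76 probe sets above background on all cord arrays, the median coefficient of variation was 29.7%, beside 9.55% for the 29355 such probe sets of the whole array. Cord replicate 1 was brightest and replicate 2 dimmest for 52 of the 76 (68.4%, beside 20.6%), and the median ratio of replicate 1 to replicate 2 was 1.75, beside 0.996. The ratio passed 2 for 27 of the 76 (35.5%, beside 1.75%). It was 4.56 for Lum, 4.32 for Col8a1 (1455627_at), 4.18 for Col1a1 (1423669_at) and 3.59 for Col3a1 (1427883_a_at). The proteoglycans had a median ratio of 2.05 and type VI collagen of 2.28. At the other end were Col27a1 (1429549_at, 0.621) and Col25a1 (1438540_at, 0.642), both dimmer on replicate 1. The same order held for 15 of 21 meningeal and perivascular fibroblast genes, whose median ratio was 1.95, and for other interstitial matrix genes it was 1.82. Endothelial genes (1.04), pericyte and smooth muscle genes (1.14), astrocyte genes (0.999), oligodendrocyte genes (0.907) and microglia genes (1.06) had ratios nearer to 1. So had collagen receptor (1.12) and motor neuron genes (1.03), though 23.1% of the motor neuron genes passed 2. In between were genes of the Igf2 axis (1.5), other basement membrane (1.45), Schwann cell and peripheral nerve (1.39) and collagen folding genes (1.25). How the cord was dissected or how much meninges each sample held is not given in the labels, and the part of either was not tested. This spread is in the standard errors above; without cord replicate 1 there were 46 probe sets lower and 3 higher in wild-type motor neurons.

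**Figure D4:**
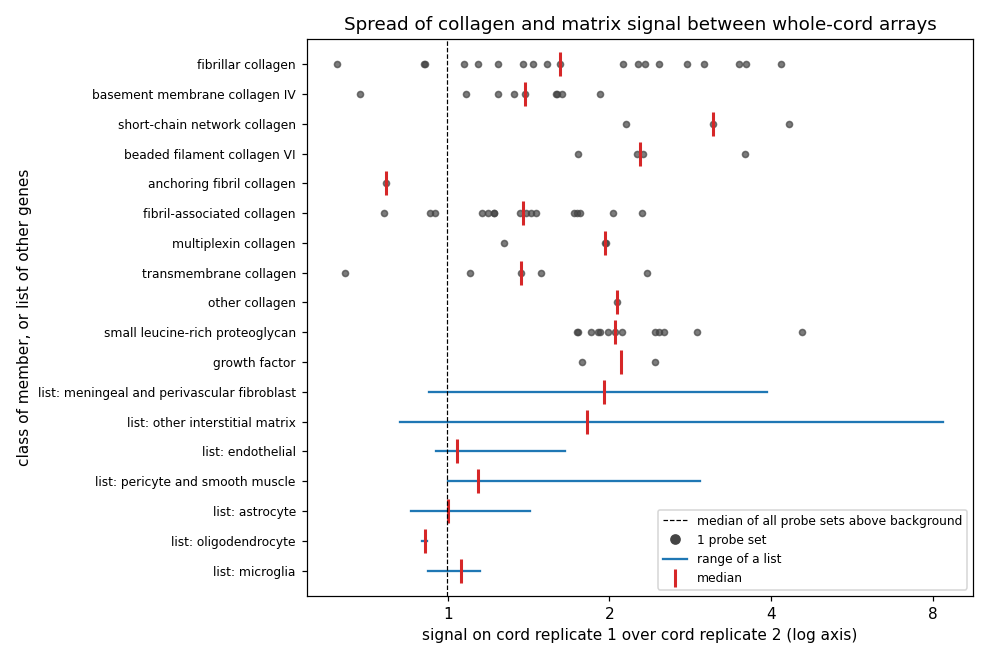
Ratio of the signal on cord replicate 1 to that on cord replicate 2 (log axis) for each probe set above background on all 3 cord arrays, by structural class, with class medians in red; blue lines give the range of lists of other genes and the dashed line the median of the whole array, 0.996. The proteoglycan points all lie right of 1, between 1.74 and 4.56, while the medians of the glial lists lie within 0.907 to 1.06.

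Genes that build and hold the matrix were set beside these members, 1 probe set per gene. Counts lower or higher in wild-type motor neurons are to be read beside 41.5% and 24.0% of all probe sets. Of the meningeal and perivascular fibroblast genes 21 of 22 were measured and 15 tested; 14 were lower in wild-type motor neurons and none higher, with Zic1 (-6.94), Islr (-5.97) and Slc6a20a (at least 20.2-fold) changing most. Their summed signal was 142200 to 169700 in cord and 28870 to 50240 in captured neurons, most of it from Ptgds, which choroid plexus and glia are known to express too (85700 to 99240 in cord, 18750 to 41680 in captured neurons). The other genes of the list summed to between 44530 and 70450 on cord arrays, between 8553 and 10110 on wild-type and between 8522 and 10320 on SOD1-mutant motor neuron arrays. Of the 21 genes 8 were above background on all 6 captured arrays and 4 on none, and no value was 0. Endothelial genes were lower for 10 of 11 and higher for 1 (Egfl7, 1.18), and pericyte and smooth muscle genes were lower for 8 of 8, as were all 4 astrocyte and all 4 microglia genes. The part of any of these cells in the collagen values was not tested. Among other interstitial matrix genes, 16 of 18 were lower, led by Mgp (-5.17), Fn1, encoding fibronectin (-4.97), and Prelp (-4.71), and Matn2 was higher (0.69). For the other basement membrane genes 6 of 10 were lower, with the laminin chain gene Lamb1 at least 26.3-fold and the nidogen gene Nid1 by -4.65, and Agrn, encoding agrin, was higher (0.52). None of the 124 tested genes of all 13 lists, those below included, passed limma's adjusted test between genotypes, and 20 had an unadjusted p under 0.05 (16.1%, beside 15.2% of all probe sets). A fit with the replicate number as a block called 3 of them, Aqp4 of the astrocyte list (1.20) and Lhx4 (-1.02) and Ret (0.55) of the motor neuron list, and no matrix gene.

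Among the enzymes and chaperones that make collagen, the shares called were close to those of the whole array. Of 19 tested genes for folding, modification and crosslinking, 9 were lower (47.4%, beside 41.5% of all probe sets), 4 higher (21.1%, beside 24.0%) and 6 not called in wild-type motor neurons, and 7 lower and 6 higher after median centring. The crosslinking enzyme gene Lox (-3.67 ± 0.31), the procollagen processing gene Pcolce (-3.14 ± 0.41) and Serpinh1, which encodes the collagen chaperone HSP47 (-2.99 ± 0.34), were lower. Higher were P4hb (0.62 ± 0.10) and P4ha2 (0.78 ± 0.17), encoding prolyl 4-hydroxylase subunits, Ppib (0.78 ± 0.10), a prolyl isomerase of the endoplasmic reticulum, and Pcolce2 (0.67 ± 0.15), all named after their values were seen. P4hb and Ppib products also serve the folding of other secreted proteins. Of 5 tested collagen receptor genes, Itgb1 (-1.53 ± 0.26) and Ddr2 (-1.34 ± 0.31) were lower and none was higher, and after median centring none was lower and 1 higher.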

How the data were processed

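The 9 Affymetrix Mouse 430 2.0 arrays were grouped by the sample descriptions, with replicate numbers from the titles. The authors deposited linear signal intensity for each probe set. It was computed with software not given in the sources used here. On every array the mean after trimming 2% at both ends is 2500. The 64 control probe sets among 45101 were dropped. Before log2, 20.3 (the 10th percentile of the values) was added as a pseudocount, which understates changes of dim probe sets. The 27022 probe sets whose group means, averaged on the log2 scale, passed the 40th percentile were tested; the same filter on linear means was added after the data were seen. Each comparison was fitted on its 6 arrays with limma 3.58.1 in R 4.3.3 (lmFit, eBayes with intensity trend), two-sided, adjusted over all tested probe sets. "At least" folds set the bright group's mean log2 value against, per dim array, the higher of background and its own value.

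Members and lists were chosen with earlier results of these data known. Values per array are given for the proteoglycans and Igf2, up to 4 genes of highest mean per role, members higher than in cord, the 5 largest falls in each comparison with cord and the 3 smallest p between genotypes; from each list, up to 3 genes with the largest change. In simulated data, 200 of 27022 probe sets were changed. Recovered were 70.0% of changes of 2 for wild-type motor neurons against cord, 58% between genotypes and 59% for SOD1-mutant motor neurons against cord. False calls numbered 5, 7 and 3. In the real data 65.5% and 62.1% of probe sets were called against cord, far more than were changed here. The recoveries therefore do not describe the comparisons with cord. Symbols and promoters came from RefSeq (GRCm38.p6). Alternatives were other scalings, filters and pseudocounts, all arrays in 1 fit, no trend, values raised to background, a replicate block and leaving out each array. Plots used matplotlib 3.10.9 (Python 3.11.15).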

Additional observations from a re-analysis of the deposited data

How the results depend on the processing

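The counts of probe sets called against cord stayed within 1.5 times of those reported, except with the filter at the 60th percentile, which tested 19 of them and called 17 for wild-type (15 lower, 2 higher) and 15 for SOD1-mutant motor neurons (14 lower, 1 higher). Without 1 array the calls numbered 46 to 55 for wild-type and 45 to 53 for SOD1-mutant motor neurons against cord, and 0 to 0 between genotypes, where all 9 arrays in 1 fit called 1, Col1a2 1423110_at. With no filter 63 and 67 of 98 were called, and with the filter on linear means 60 and 61 of 69. Shares of all probe sets called under these filters are not given here. The replicate block called 53, 0 and 54, as without it; among the other lists it called 3 genes between genotypes (1 lower, 2 higher). Same-numbered arrays correlated by -0.04 to 0.17 in their deviations, and not every array correlated best with its own number. Between the motor neuron groups, replicates 1 and 2 (0.145 and 0.171) correlated best with their own number, and replicate 3 (0.00228) did not. These values do not settle whether the numbers pair the arrays.

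Of the 30 named probe sets called in wild-type motor neurons against cord, 23 kept their call in both other scalings and without each array, and 19 of 28 did in SOD1-mutant motor neurons. Among the tested probe sets, changes that turned sign against cord in wild-type motor neurons, with quantile normalization and median centring, were those of Col5a3 (0.04 and 0.13), Col13a1 (0.78 and 0.88), Col27a1 1429549_at (0.08 and 0.11), Col25a1 1421427_at (0.36 and 0.49), Col19a1 1456953_at (0.85 and 0.86) and, with centring, Col4a2 (0.18). The effect of leaving out 1 array on the sign was looked at for the named probe sets only. Among these, Col13a1 (-0.32 to 0.41) and Col19a1 1456953_at (-0.17 to 0.11) turned without cord replicate 1 or motor neuron replicate 1. Col22a1 1446851_at (-0.11 to 0.28) turned without cord replicate 1 or motor neuron replicate 1 or 3. In SOD1-mutant motor neurons Col4a2 (0.07, centring), Col20a1 1425234_at (0.08, centring), Col27a1 1429549_at (0.28 and 0.24, quantile and centring) and Col5a1 1416740_at (0.17 and 0.19) turned. Among the named probe sets, Col5a1 1434479_at (-0.19 to 0.35) turned without cord replicate 2 or 3 or mutant replicate 2. Col22a1 1446851_at (-0.02 to 0.23) turned without mutant replicate 2. The cause was not tested. Signals near background limit the dim probe sets.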

Other observations

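Several of these genes are neighbours on their chromosome in the RefSeq annotation, 8 pairs among the 48 genes: Col9a1 with Col19a1, Col3a1 with Col5a2 and Col4a4 with Col4a3 on chromosome 1, Col4a1 with Col4a2 on 8, Col6a5 with Col6a4 on 9, Col6a2 with Col6a1 and Dcn with Lum on 10, and Col4a6 with Col4a5 on X. In wild-type motor neurons against cord both tested members were lower in the pairs Col3a1 and Col5a2 (-7.81 and -3.64), Col6a2 and Col6a1 (-4.01 and -4.43), Dcn and Lum (-2.34 and -4.40) and Col4a1 and Col4a2 (-1.72 and -0.73), the last with Col4a2 at 0.18 after median centring. In the pair Col9a1 and Col19a1 the probe sets of highest mean changed by -1.275 and -0.046, and only that of Col9a1 was called lower. Of all 38 tested genes 81.6% were lower by that measure, whether neighbours or not. These pairs were looked at after the values were known.

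The genes that missed the filter also held some with cord signal. Col14a1, a fibril-associated collagen, read 1329, 654 and 1106 in cord and 37.2, 170 and 47.3 in wild-type motor neurons (1427168_a_at), and Col4a6 read 672, 620 and 696 in cord and 60.3, 24.0 and 65.2 in wild-type motor neurons, at least 4.28-fold apart. Col17a1, a collagen of epithelial attachment, was below background on all cord and wild-type motor neuron arrays and read 15.4, 163 and 177 in SOD1-mutant motor neurons, with 1 of 3 above background.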
